A study of Mus musculus with 10 samples.

Results

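The mitochondrial respiratory chain genes were taken by symbol from a gene table of cap analysis of gene expression (CAGE) in the mouse hippocampus. A row was kept when its symbol began with *Nduf*, *Uqcr* or *Atp5*, was *Sdha*, *Sdhb*, *Sdhc* or *Sdhd*, or began with *Cox4*, *Cox5*, *Cox6*, *Cox7* or *Cox8*, and symbols holding -ps were to be dropped. This gave 90 of the 15900 listed genes, under 89 symbols, because *Ndufb8* stood in the table under 2 Ensembl identifiers. By the complex they belong to, 41 were genes of complex I, 4 of complex II, 8 of complex III, 18 of complex IV and 16 of complex V. The other 3 (*Atp5s*, *Atp5sl* and *Cox4nb*) matched by symbol, are no subunits of these complexes and were not assigned to one. The 13 subunits encoded in the mitochondrial genome were not analysed here.

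Complexes I and II take electrons from NADH and succinate and hand them to ubiquinone, complex III passes them on to cytochrome c, and complex IV, cytochrome c oxidase, gives them to oxygen. The protons pumped on the way drive complex V, the ATP synthase. In the hippocampus, synaptic transmission and the recovery of ion gradients after firing draw heavily on the ATP made in this way, and most subunits are the products of nuclear genes such as those described here.

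The study asked how gene expression in the hippocampus moves in the first days after status epilepticus (SE) and what levetiracetam (LEV), an antiepileptic drug, does to it. Whole hippocampi came from 10 male ICR mice aged 9 to 10 weeks, divided into 5 groups of 2. The pre-SE mice were labelled untreated and, per the study's methods, received saline in place of PILO. The SE 6 h and SE 2 days mice were killed 6 h and 2 days after SE, which was induced with pilocarpine (PILO) following methyl scopolamine and was stopped with diazepam. The SE + LEV 6 h and SE + LEV 2 days mice went through the same procedure and were also given LEV by mouth, 1 time before the 6 h point and 5 times before the 2 days point. PILO, the seizures and what was given to stop them cannot be told apart in a comparison with pre-SE. The tissue held neurons, glia and vessels in 1 sample, so fewer cells of a type and less RNA per cell cannot be told apart either.

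The libraries held 10540698 to 51710968 tags, so that 3 tags were worth 0.058 to 0.285 CPM (tags of a gene relative to the size of its library). Each CAGE tag marks the capped end of 1 transcript, so CPM was not divided by transcript length. In some groups the 2 mice differed more for short members than for longer ones, as given below. Levels are compared between genes with that limit. Neuron markers summed to 5057 to 10223 CPM in the 10 libraries, so the neurons of the labelled tissue were represented throughout. Choroid plexus markers, chiefly *Ttr*, summed to more than 500 CPM in 4 of them (pre-SE replicate 2, SE 6 h replicate 2, SE + LEV 6 h replicate 1 and SE + LEV 2 days replicate 1) and to 8.21 to 65.4 CPM in the other 6. Estimates without these 4 libraries are also given for the called changes of *Ndufaf3*, *Atp5o*, *Mdh2* and *Ppargc1a*, and for *Cox8b*. They are also given for the members' median change of SE + LEV 6 h against SE 6 h and against pre-SE. Other estimates are given only with these libraries included. All 90 respiratory chain genes passed the filter on low values (0.1 CPM or more in 2 or more libraries).

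Together the 90 genes took 2.51 to 3.98% of all tags. Their summed level was 29853 and 38950 CPM in the pre-SE mice, 25141 and 39822 CPM in the SE 6 h mice, 28284 and 36381 CPM in the SE + LEV 6 h mice, 36582 and 35813 CPM in the SE 2 days mice, and 35922 and 38669 CPM in the SE + LEV 2 days mice. The lowest and the highest of these sums both came from the SE 6 h group, and no group was separated from any other. Complexes I and IV each supplied about as many tags, 34.4% and 34.7% of those of the 90 genes, followed by complex V with 19.7%, complex III with 8.59% and complex II with 2.19%.

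Complex I summed to 9881 and 13444 CPM in the pre-SE mice, 7916 and 13586 CPM at SE 6 h, 9314 and 12812 CPM at SE + LEV 6 h, 13201 and 12421 CPM at SE 2 days, and 12613 and 13655 CPM at SE + LEV 2 days. Complex II summed to 689 and 774 CPM, 528 and 798 CPM, 677 and 852 CPM, 860 and 741 CPM, and 756 and 890 CPM in the same order of groups. For complexes I and II, as for III and IV, the 2 mice of SE 6 h lay on either side of both pre-SE mice. Complex III gave 2428 and 3109 CPM in the pre-SE mice, 1983 and 3858 CPM at SE 6 h, 2296 and 3339 CPM at SE + LEV 6 h, 2936 and 3234 CPM at SE 2 days, and 2964 and 3532 CPM at SE + LEV 2 days. Complex IV gave 10478 and 13813 CPM, 9065 and 14332 CPM, 10130 and 12964 CPM, 11912 and 11288 CPM, and 12259 and 13596 CPM, again in the order of groups used above. In complex V alone did both SE 2 days mice lie above both SE 6 h mice, with 7529 and 7999 CPM against 5509 and 7076 CPM. Its sums were 6212 and 7653 CPM in the pre-SE mice, 5725 and 6284 CPM at SE + LEV 6 h and 7180 and 6841 CPM at SE + LEV 2 days. No test was run on these sums, and an exact permutation test of 2 mice against 2 cannot give a two-sided p below 0.33.

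**Figure D1:**
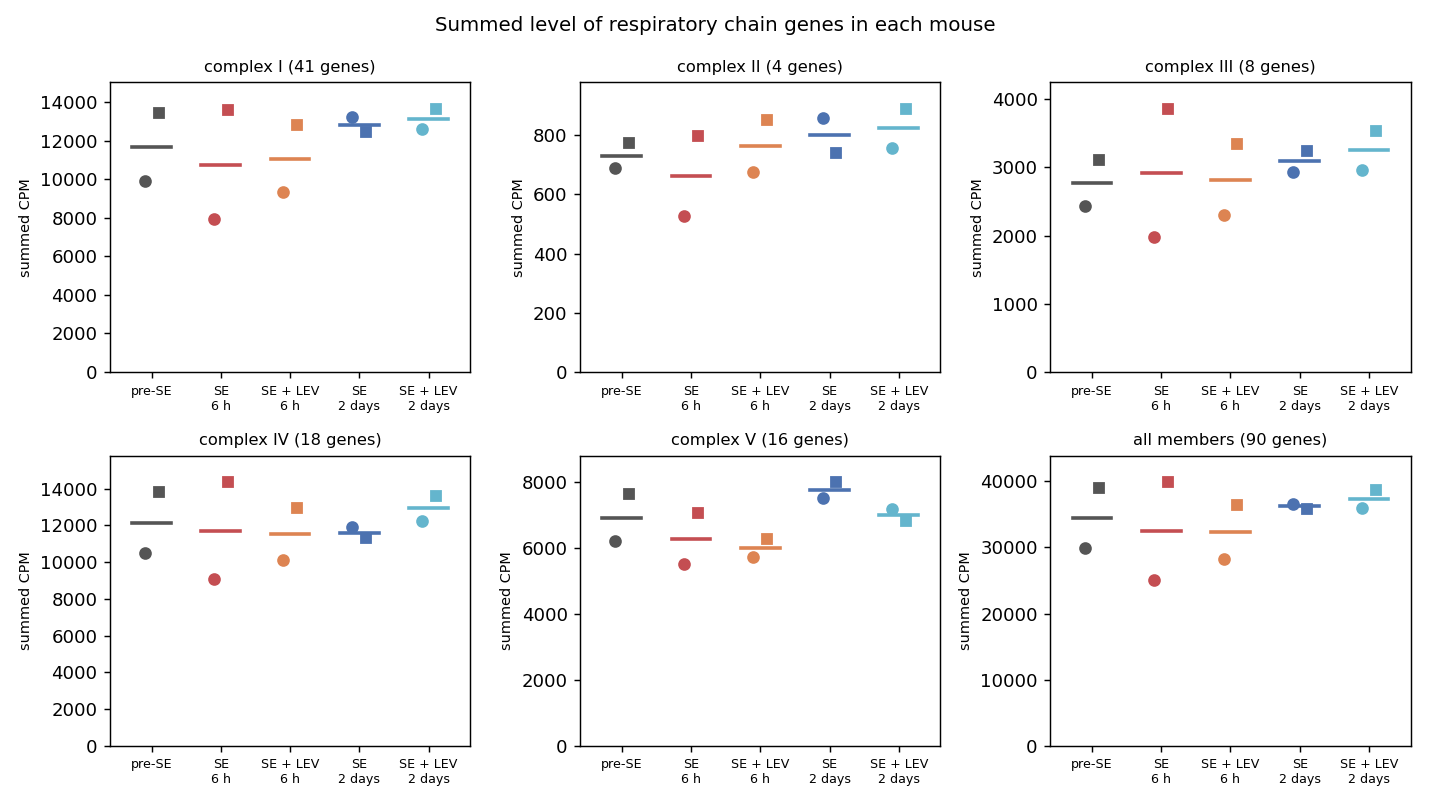
Summed CPM of the genes of each complex, and of all 90 genes, in each mouse (circle, replicate 1; square, replicate 2), by group, with the group mean as a bar. The 2 mice of SE 6 h stand furthest apart, at 25141 and 39822 CPM for all members.

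Across members, the mean level over the 10 mice ran from 0.774 CPM for *Cox4i2* to 1934 CPM for *Cox8a*, both subunits of complex IV. In complex I the highest was *Ndufa5*, an accessory subunit, at 858 CPM, and the lowest was the second *Ndufb8* entry at 3.37 CPM, a short model that overlaps the main *Ndufb8* gene and *Sec31b* on the same strand. In complex II *Sdha*, the flavoprotein that oxidises succinate, had 437 CPM and *Sdhc*, a membrane anchor, 31.9 CPM. In complex III *Uqcrq* had 561 CPM and *Uqcrb* 97.4 CPM, both small subunits. In complex V *Atp5b*, the catalytic beta subunit, had 1203 CPM and *Atp5l2*, a paralogue of subunit g, 1.5 CPM. Capped transcripts of subunits of the same complex thus differed widely in level. The coefficient of variation over the 10 mice had a median of 23.5% and ran from 8.65% for the steadiest member to 135% for *Cox8b*.

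The first comparison asked what SE had done by 6 h. *Ndufaf3*, an assembly factor that helps to build complex I, was the only member called at a limma adjusted p of at most 0.05. Its level was 48.3 and 56.8 CPM in the pre-SE mice and 28.6 and 26.3 CPM in the SE 6 h mice, so that the groups did not overlap. It fell by 0.93 on the log2(CPM + 0.1) scale (SE 0.21, 95% interval -1.4 to -0.45, limma adjusted p = 0.048), a 1.9-fold change. Of all genes tested, 0.202% were called lower and 2.76% higher, against 1 and 0 of the 90 members. The call stood near the threshold. Without the 4 libraries rich in choroid plexus markers, which leaves 1 mouse in each group, the estimate was -0.75 in a fit where limma called 0 of all genes, so that its adjusted p carries no weight. The call was lost with the replicate number as a block (limma adjusted p = 0.062), in edgeR's quasi-likelihood test on recovered tags (adjusted p = 0.08), when CPM was rescaled by median of ratios (limma adjusted p = 0.077) and when any 1 of the 10 libraries was left out (limma adjusted p 0.057 to 0.32), whereas DESeq2 kept it (adjusted p = 0.024).

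As a group the members did not stand far from other genes at 6 h. Their median logFC was -0.19, against -0.13 for all genes tested, and 64 of 90 had an estimate below 0. The all-gene median moved with the scaling. After rescaling by median of ratios it was -0.005, the members' median was -0.065 and 52 of 90 estimates were below 0. In 19 members (21.1%) both SE 6 h mice lay below both pre-SE mice and in 2 (2.22%) both lay above, compared with 31.3% and 18.6% of all genes. Both shares were below those of all genes. At an unadjusted p under 0.05, 5 members were lower (5.56%) and 0 were higher, beside 8.51% and 9.21% of all genes, and neither edgeR nor DESeq2 called a member higher.

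By role, all 7 core subunits of complex I, which form the arm where NADH is oxidised, had estimates below 0 at 6 h (logFC -0.61 to -0.18, median -0.26). *Ndufs1*, the large iron-sulphur subunit at the entry of electrons, had 137 and 153 CPM before SE and 102 and 88.5 CPM at 6 h (logFC = -0.61, SE 0.24, limma adjusted p = 0.21). The 30 accessory subunits had a median of -0.23. In complex II *Sdhb*, the iron-sulphur subunit, had 192 and 280 CPM before SE and 145 and 167 CPM at 6 h, without overlap (logFC = -0.58, SE 0.26, limma adjusted p = 0.28). In complex V *Atp5o*, which joins the peripheral stalk to the catalytic head, had 172 and 242 CPM before SE and 138 and 117 CPM at 6 h (logFC = -0.68, SE 0.24, limma adjusted p = 0.18). The medians of complexes II, III, IV and V were -0.17, -0.2, -0.09 and -0.17.

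The lowest estimate at 6 h was that of *Ndufa4l2*, a paralogue of the complex IV subunit *Ndufa4* that is known to rise under hypoxia. It had 1.62 and 1.64 CPM in the pre-SE mice and 0.61 and 0.55 CPM in the SE 6 h mice, the latter resting on 19 and 8 tags (logFC = -1.35, SE 0.39, limma adjusted p = 0.11). Among the genes not assigned to a complex, *Atp5sl* was lower without overlap (logFC = -0.81, limma adjusted p = 0.22). The 2 members in which both mice lay above pre-SE were *Cox4nb*, a subunit of the membrane protein complex of the endoplasmic reticulum (logFC = 0.37, limma adjusted p = 0.4), and *Ndufaf4*, another assembly factor of complex I (logFC = 0.22, limma adjusted p = 0.78).

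**Figure D2:**
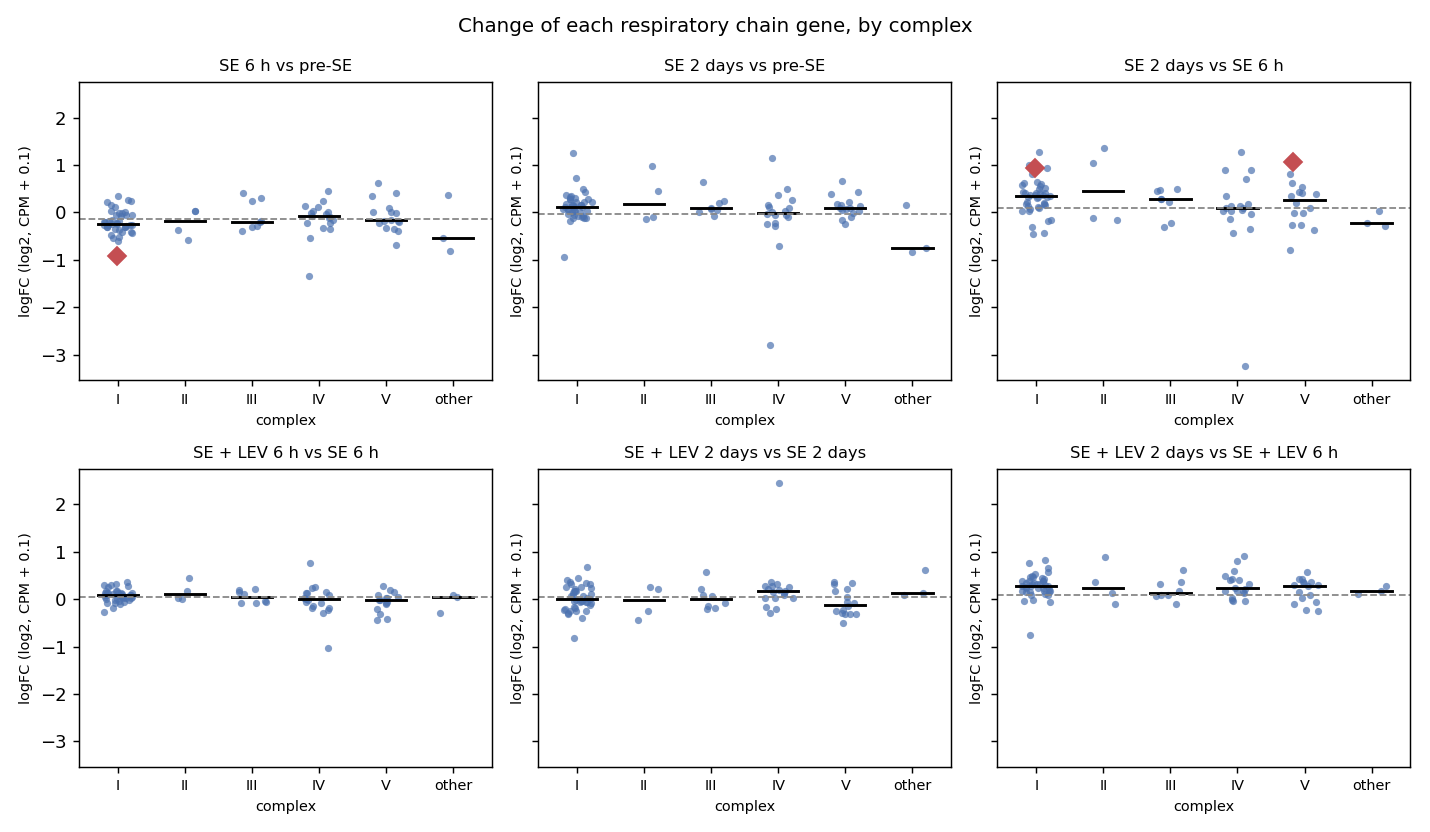
LogFC of each member (points) by complex in 6 comparisons, with the median of each complex (black bar), the median of all genes tested (dashed line) and called members as red diamonds. The 3 calls are *Ndufaf3* in SE 6 h against pre-SE, and *Ndufaf3* and *Atp5o* in SE 2 days against SE 6 h.

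At 2 days after SE, no member was called against pre-SE by limma, edgeR or DESeq2, while 5.66% of all genes tested were called in either direction by limma. At an unadjusted p under 0.05 stood 2 higher members and 2 lower ones (2.22% each), beside 12.5% and 7.29% of all genes. The median logFC of the members was 0.1, against -0.03 for all genes, and 60 of 90 estimates were above 0. Both SE 2 days mice lay above both pre-SE mice in 20 members (22.2%) and below in 8 (8.89%), compared with 26.3% and 25.6% of all genes. *Ndufaf3* was back in the range of the pre-SE mice, at 56.1 and 49.8 CPM (logFC = 0.01, 95% interval -0.46 to 0.49, limma adjusted p = 0.99).

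The highest estimates without overlap belonged to the second *Ndufb8* entry (logFC = 1.25, limma adjusted p = 0.14), *Cox7a1*, the heart and skeletal muscle isoform of subunit 7a (1.14, 0.24), *Sdhc* (0.98, 0.26), *Ndufc2*, an accessory subunit of complex I (0.73, 0.38), and *Atp5f1*, the peripheral stalk subunit b of complex V (0.67, 0.4), each pair giving logFC and limma adjusted p. *Sdhc* had 15.7 and 42.2 CPM before SE and 54.6 and 47.5 CPM at 2 days. *Cox7a1* had 3.9 and 7.23 CPM before SE and 10.1 and 13.8 CPM at 2 days. The spread between the pre-SE mice was wide for both genes. On the lower side stood *Cox8b* (-2.8, 0.33), *Atp5s* (-0.84, 0.2), *Atp5sl* (-0.76, 0.21), *Cox6a2*, the heart and skeletal muscle isoform of subunit 6a (-0.71, 0.37), and *Cox6c* (-0.29, 0.72).

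The change from 6 h to 2 days after SE held the other calls. *Atp5o* rose from 138 and 117 CPM at SE 6 h to 303 and 232 CPM at SE 2 days (logFC = 1.06, SE 0.24, 95% interval 0.53 to 1.59, limma adjusted p = 0.037), a 2.09-fold change. *Ndufaf3* rose from 28.6 and 26.3 CPM to 56.1 and 49.8 CPM (logFC = 0.94, SE 0.21, 95% interval 0.47 to 1.42, limma adjusted p = 0.038), a 1.92-fold change. These 2 of 90 members compare with 3.14% of all genes called higher, and 0 members with 1.11% of all genes called lower. At an unadjusted p under 0.05, 14 members were higher (15.6%) and 1 was lower (1.11%), beside 12.8% and 7.29% of all genes, and neither edgeR nor DESeq2 called a member lower. With the replicate block both calls ended just above the threshold (limma adjusted p = 0.051 for each), and edgeR's quasi-likelihood test gave adjusted p = 0.074 for *Atp5o* and 0.067 for *Ndufaf3*. DESeq2 kept them (adjusted p = 0.013 and 0.017). Both comparisons that named *Ndufaf3* share the SE 6 h mice, so its fall and its rise rest on the same low pair of libraries. Leaving out 1 library kept *Atp5o* called only when it was a pre-SE or SE + LEV 2 days mouse, and *Ndufaf3* only when it was a SE + LEV 2 days mouse. The limma adjusted p ran from 0.039 to 0.21 for *Atp5o* and from 0.04 to 0.19 for *Ndufaf3* over the 10 libraries left out. Without the 4 libraries rich in choroid plexus markers, which leaves 1 mouse at SE 6 h, the estimates were 0.94 for *Atp5o* and 0.88 for *Ndufaf3*, again with 0 of all genes called by limma.

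*Sdhb* lay just outside the threshold. It had 145 and 167 CPM at SE 6 h and 340 and 300.2 CPM at SE 2 days (logFC = 1.04, SE 0.26, limma adjusted p = 0.054). DESeq2 called it (adjusted p = 0.028), and edgeR's quasi-likelihood test did not (adjusted p = 0.099). Of 20 alternatives, 3 called *Sdhb* and 17 did not. *Sdhc* had 14.1 and 28.1 CPM at SE 6 h and 54.6 and 47.5 CPM at SE 2 days (logFC = 1.35, SE 0.45, limma adjusted p = 0.14). *Ndufa4l2* had 1.53 and 1.58 CPM at SE 2 days (logFC = 1.28, SE 0.39, limma adjusted p = 0.11), close to its pre-SE values. The second *Ndufb8* entry had an estimate of 1.27 (limma adjusted p = 0.15). In complex II the levels of *Sdha*, 331 and 548 CPM at SE 6 h and 423 and 350 CPM at SE 2 days, and of *Sdhd*, 38.3 and 55.7 CPM and 41.8 and 43.5 CPM, overlapped.

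The members' median logFC from 6 h to 2 days was 0.25, against 0.09 for all genes tested. Both SE 2 days mice lay above both SE 6 h mice in 32 members (35.6%), compared with 31% of all genes, and below in 2 (2.22%), compared with 20.1% of all genes. The 2 lower members were *Cox8b* (logFC = -3.25, limma adjusted p = 0.25) and *Ndufaf4* (-0.3, 0.67). The share of members that were higher was thus near that of all genes. After rescaling by median of ratios the members' median was 0.149 and that of all genes -0.014. All 7 core subunits of complex I had estimates above 0 (0.23 to 0.64, median 0.44), and 5 of them were separated. The medians were 0.34 for complex I, 0.46 for II, 0.28 for III, 0.09 for IV and 0.27 for V. The 11 ubiquitous subunits of complex IV alone had a median of 0.09.

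**Figure D3:**
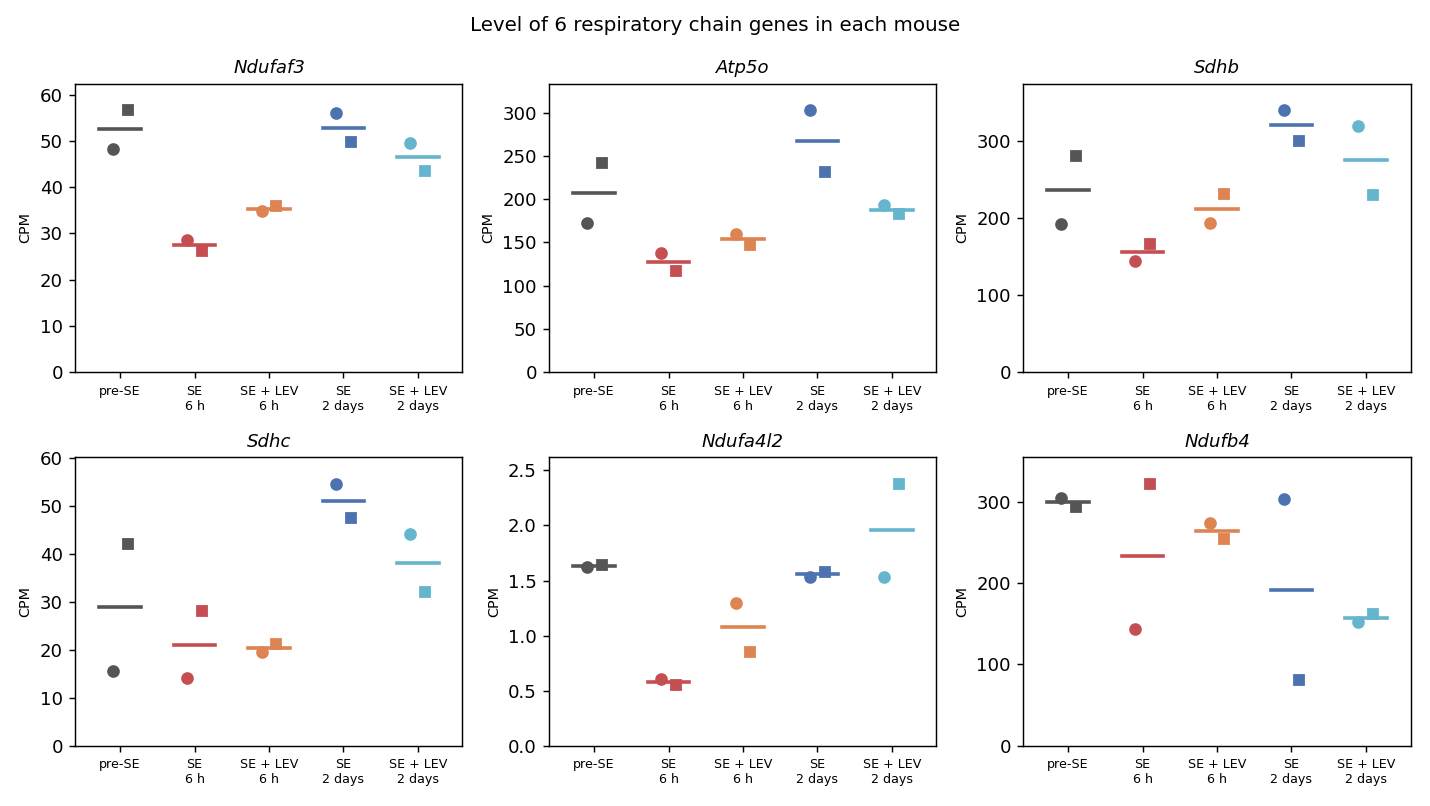
CPM of *Ndufaf3*, *Atp5o*, *Sdhb*, *Sdhc*, *Ndufa4l2* and *Ndufb4* in each mouse (circle, replicate 1; square, replicate 2), by group, with the group mean as a bar. The SE 6 h mice are the lowest pair for *Ndufaf3*, *Atp5o*, *Sdhb* and *Ndufa4l2*, and *Ndufb4* splits the SE 2 days mice into 303 and 80.4 CPM.

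The called genes lie as follows in the mm9 build (NCBIM37, GENCODE M1). *Ndufaf3* (ENSMUSG00000070283) spans 108468197 to 108469673 on the minus strand of chromosome 9, in 5 exons, and overlaps no other annotated gene. *Atp5o* (ENSMUSG00000022956) is drawn from 91684643 to 91931932 on the minus strand of chromosome 16, a span that takes in *Donson* and *Cryzl1* on the same strand and *Itsn1* on the other. Tags of these neighbours could be confused with its own. Over SE 2 days against SE 6 h, the logFC was -0.27 for *Donson*, -0.02 for *Cryzl1* and 0.02 for *Itsn1* (limma adjusted p = 0.67, 0.98 and 0.97), beside 1.06 for *Atp5o*. Of the 90 members, 9 overlap a gene on the same strand and 22 a gene on the other, and 25 have a start on the other strand within 300 bases of their own.

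Since CAGE reads the place where transcripts start, the sequences just before these starts are shown for the 2 called genes, for *Cox6a1* as a member with the NRF1 motif, and for *Cox8b* as the member that varied most. They come from RefSeq's promoter windows (GRCm38.p6), each was found at 1 place on NCBIM37, and bases inside the annotated gene were left out. They lie at chr9:108469768-108470017 for *Ndufaf3*, chr16:91931933-91932125 for *Atp5o*, chr5:115798991-115799217 for *Cox6a1* and chr7:148086346-148086595 for *Cox8b*. Each is written 5′ to 3′ on the minus strand and ends just before the start, by RefSeq or by the annotation, whichever comes first, and capitals mark the motifs named after them.
Ndufaf3: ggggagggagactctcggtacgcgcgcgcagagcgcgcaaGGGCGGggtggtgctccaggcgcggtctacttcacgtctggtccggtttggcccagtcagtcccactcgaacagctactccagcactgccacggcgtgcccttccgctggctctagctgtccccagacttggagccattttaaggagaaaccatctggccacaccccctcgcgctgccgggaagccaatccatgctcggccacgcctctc
Atp5o: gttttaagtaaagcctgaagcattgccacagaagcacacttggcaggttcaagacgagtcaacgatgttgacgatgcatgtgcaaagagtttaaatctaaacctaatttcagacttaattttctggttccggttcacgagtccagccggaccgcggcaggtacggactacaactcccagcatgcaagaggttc
Cox6a1: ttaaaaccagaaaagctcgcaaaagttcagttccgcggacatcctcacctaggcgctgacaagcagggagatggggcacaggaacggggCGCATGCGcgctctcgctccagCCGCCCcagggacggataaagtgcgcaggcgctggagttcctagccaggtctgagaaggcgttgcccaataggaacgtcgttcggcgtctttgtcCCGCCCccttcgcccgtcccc
Cox8b: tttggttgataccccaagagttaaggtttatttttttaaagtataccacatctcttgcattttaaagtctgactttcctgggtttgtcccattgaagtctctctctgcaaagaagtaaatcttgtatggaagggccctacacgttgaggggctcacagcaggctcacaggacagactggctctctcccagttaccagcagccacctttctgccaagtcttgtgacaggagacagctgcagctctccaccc

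The motifs were CGCATGCG for NRF1, a factor known for its sites in respiratory genes, CCGGAAG for GABPA and other ETS factors, AAGATGGCG for YY1, GGGCGG for Sp factors and TATAAA for the TATA box, and none of them contains another. Each motif was searched on either strand, so that CCGCCC also counts as the Sp letters. Windows of 300 bases (250 before and 50 after the start) were listed for 73 of the 89 symbols, 79 windows in all. CGCATGCG was held by 10 of them (12.7%), against 3.52% of the windows of all listed genes and 1.87% of all 32851 windows. AAGATGGCG was held by 11.4%, against 2.66% and 1.4%, and CCGGAAG by 21.5%, against 15.7% and 8.86%. GGGCGG was held by 41.8%, against 61.6% and 35.7%, and TATAAA by 8.86%, against 7.35% and 13.6%. The NRF1 letters stood in the windows of *Atp5g2*, *Atp5j*, *Atp5k*, *Atp5l*, *Cox6a1*, *Ndufa11*, *Ndufa8*, *Ndufaf4*, *Uqcr11* and *Uqcrc1*, thus in complexes I, III, IV and V. In the sequences above, *Cox6a1* holds CGCATGCG and, as CCGCCC, the Sp letters of the other strand. *Ndufaf3* holds the Sp letters as GGGCGG, and the printed stretches of *Atp5o* and *Cox8b* hold none of the 5. The rest of the *Cox8b* window, which is not printed, holds TATAAA, and the part of the *Cox6a1* window not printed holds CCGGAAG on either strand. The windows of *Ndufaf3* and *Atp5o* were rich in CpG, with an observed over expected ratio of 0.89 and 1.07 against a median of 0.83 for the members, and that of *Cox8b* was poor in CpG, at 0.11.

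No member was called changed with LEV. At 6 h, SE + LEV against SE gave 0 calls among the members by limma, edgeR or DESeq2, and 0 members reached an unadjusted p under 0.05, beside 1.16% of all genes higher and 3.42% lower. Limma called 0.0126% of all genes in either direction. The median logFC was 0.04 for the members and 0.04 for all genes, and -0.017 and -0.014 after rescaling by median of ratios. Without the 4 libraries rich in choroid plexus markers, which leaves 1 mouse a group, the members' median was 0.57. That fit sets the higher mouse of SE + LEV 6 h (member sum 36381 CPM) against the lower mouse of SE 6 h (25141 CPM), which by itself raises the median. Both LEV mice lay above both SE 6 h mice in 9 members (10%) and below in 4 (4.44%), compared with 16.1% and 13.4% of all genes. *Ndufaf3* was at 34.8 and 36 CPM with LEV, between the SE 6 h and the pre-SE mice (logFC against SE 6 h = 0.37, 95% interval -0.11 to 0.84, limma adjusted p = 1). *Sdhb* was at 193 and 231 CPM (0.44, -0.13 to 1.02), *Ndufa4l2* at 1.3 and 0.85 CPM (0.76, -0.11 to 1.64) and *Atp5o* at 160 and 147 CPM (0.27, -0.26 to 0.8), each with logFC against SE 6 h, its 95% interval and limma adjusted p = 1. These intervals reach from below 0 to a size near or above that of the SE 6 h estimates, so with 2 mice a group a LEV difference of that size could be neither shown nor set aside. *Ndufs1* (0.29) and *Ndufv1*, the NADH-binding flavoprotein (0.27), were the next highest among members whose groups did not overlap, and *Cox4nb* (-0.3), *Cox5b* (-0.29), *Atp5b* (-0.2) and the second *Ndufb8* entry (-0.19) were the 4 lower ones.

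At 2 days, SE + LEV against SE again gave 0 calls among the members by limma, edgeR or DESeq2, with 0 members at an unadjusted p under 0.05, beside 1.31% of all genes higher and 1.39% lower, and 0% of all genes called in either direction by limma. The median logFC was 0.05 for the members and 0.04 for all genes. Both LEV mice lay above both SE 2 days mice in 17 members (18.9%) and below in 14 (15.6%), compared with 15.2% and 12.2% of all genes. *Atp5o* had 193 and 182 CPM with LEV against 303 and 232 CPM without it (logFC = -0.5, 95% interval -1.03 to 0.03, limma adjusted p = 1). The other separated members with the lowest estimates were the second *Ndufb8* entry (-0.81), *Sdhc* (-0.44), *Atp5f1* (-0.32) and *Ndufb7* (-0.31). The highest of the separated members were *Cox8b* (2.46), *Ndufa1* (0.68), *Uqcr11* (0.58), *Ndufaf2* (0.45) and *Cox7c* (0.37). *Ndufa1* and *Ndufaf2* are an accessory subunit and an assembly factor of complex I, and *Uqcr11* is a small subunit of complex III. By complex the medians ran from -0.12 in V to 0.17 in IV.

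No member was called for a difference between the LEV effects at 2 days and at 6 h by limma, edgeR or DESeq2, with 1 member lower at an unadjusted p under 0.05 (1.11%, beside 0.795% of all genes) and 0% of all genes called by limma. That member was *Atp5o*, whose estimate was 0.27 at 6 h and -0.5 at 2 days, a difference of -0.77 (95% interval -1.52 to -0.02, limma adjusted p = 1).

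From 6 h to 2 days among LEV-treated mice, 0 members were called by limma, edgeR or DESeq2, against 2.14% of all genes by limma, with 1 higher member and 0 lower ones at an unadjusted p under 0.05, beside 9.22% and 2.7% of all genes. The median logFC was 0.27, against 0.09 for all genes. Both 2 days mice lay above both 6 h mice in 34 members (37.8%) and below in 1 (1.11%), compared with 26.6% and 14.6% of all genes. The single lower member was *Ndufb4* (logFC = -0.75). Among those higher without overlap, the largest were *Cox7a1* (0.92), *Sdhc* (0.88), *Ndufs6* (0.83), *Ndufa4l2* (0.8) and *Ndufaf2* (0.77), with limma adjusted p of 0.36 to 0.51. These mice are separate from those of the SE comparison over the same interval, where the members' median was 0.25.

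Against pre-SE, the SE + LEV 6 h mice gave 0 called members by limma, edgeR or DESeq2, against 0.322% of all genes by limma, with 2 lower members and 0 higher ones at an unadjusted p under 0.05, beside 3.85% and 5.53% of all genes. Both mice lay below both pre-SE mice in 21 members (23.3%) and above in 2 (2.22%), compared with 25.5% and 17% of all genes. Among members whose groups did not overlap, the lowest were *Atp5sl* (-0.73), *Ndufa4l2* (-0.59), *Ndufaf3* (-0.56), *Atp5s* (-0.5) and *Ndufa10* (-0.49), and the 2 higher ones were *Cox7c* (0.14) and *Cox4nb* (0.07). For *Ndufaf3* the limma adjusted p was 0.42. The members' median logFC was -0.14, against -0.08 for all genes, and -0.068 against -0.012 after rescaling by median of ratios. Without the 4 libraries rich in choroid plexus markers, which leaves 1 mouse a group, the members' median was 0.27. That fit sets the higher mouse of SE + LEV 6 h (member sum 36381 CPM) against the lower pre-SE mouse (29853 CPM), which by itself raises the median. The SE + LEV 2 days mice gave 0 called members by limma, edgeR or DESeq2, against 2.85% of all genes by limma, with 0 at an unadjusted p under 0.05, beside 8.86% of all genes higher and 1.91% lower. Both mice lay above both pre-SE mice in 11 members (12.2%) and below in 7 (7.78%), compared with 22.6% and 17.5% of all genes. Among members whose groups did not overlap, the highest were *Cox7a1* (0.94), *Atp5g2* (0.49), *Cox7c* (0.48), *Ndufs6* (0.46) and *Cox6b1* (0.42). The lowest of these were *Ndufb4* (-0.93), *Atp5sl* (-0.62), *Cox6a2* (-0.47), *Ndufa9* (-0.37) and *Atp5d* (-0.23). All comparisons with pre-SE share the same 2 control mice, as do those with SE 6 h, so they do not stand as separate evidence.

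Over the 5 groups, 37 of the 90 members had their lowest group mean at SE 6 h and 22 at SE + LEV 6 h, while 35 had their highest at SE 2 days and 32 at SE + LEV 2 days. The same count was not made over all genes. The all-gene median logFC was -0.13 for SE 6 h against pre-SE and 0.085 for SE 2 days against SE 6 h. After rescaling by median of ratios it was -0.005 and -0.014, beside -0.065 and 0.149 for the members. Whether these counts set the members apart from other genes was therefore not settled. *Ndufaf3* had group means of 52.5 ± 5.97 CPM before SE, 27.5 ± 1.65 CPM at SE 6 h, 35.4 ± 0.806 CPM at SE + LEV 6 h, 52.9 ± 4.47 CPM at SE 2 days and 46.6 ± 4.28 CPM at SE + LEV 2 days (SD, n = 2). *Ndufb4*, an accessory subunit of complex I, took another course. It had 305 and 294 CPM before SE, 144 and 323 CPM at SE 6 h, 274 and 254 CPM at SE + LEV 6 h, 303 and 80.4 CPM at SE 2 days, and 152 and 162 CPM at SE + LEV 2 days, so that both SE groups were split wider than any pair of group means. Leaving out SE 2 days replicate 1, the higher mouse, left 1 mouse in that group, the low one. The *Ndufb4* estimate at 2 days against pre-SE therefore had to fall, and was then -1.9.

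Part of the spread within groups ran through many members together. In SE 6 h, replicate 2 lay above replicate 1 in 79 of 90 members, with a median log2 difference of 0.6, against 0.04 for all genes. The same held for 76 members before SE (median 0.37) and 67 at SE + LEV 6 h (0.37), but for only 34 at SE 2 days (-0.08) and 52 at SE + LEV 2 days (0.06). The difference was larger for members with short transcripts. In SE 6 h the 51 members with a spliced length under 800 nt had a median of 0.77 and the 39 longer ones 0.44, and Spearman's rho between length and difference across the 90 genes, which are no independent replicates and share their libraries, was -0.48. It was -0.29 in pre-SE, -0.37 at SE + LEV 6 h, -0.18 at SE 2 days and -0.2 at SE + LEV 2 days. *Ndufa1*, for example, had 144 and 559 CPM in the 2 SE 6 h mice. Short genes at large showed a smaller difference of the same sign in SE 6 h, with a median of 0.3 over 1223 listed genes under 800 nt and -0.06 over 9231 longer ones, both with a mean of at least 10 CPM. The members were short as a class, with a median spliced length of 690.5 nt against 2132.25 nt for all listed genes. The part of this spread in the comparisons above was not tested. *Ndufaf3* and *Atp5o*, at 1066 and 684 nt, differed little between the 2 SE 6 h mice.

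**Figure D4:**
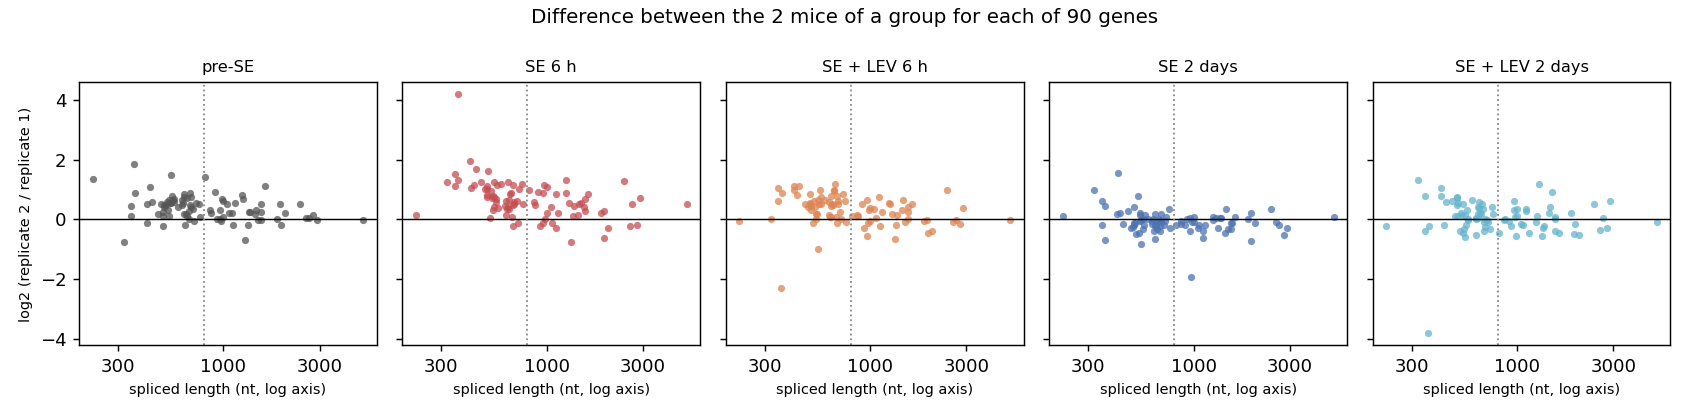
Log2 ratio of replicate 2 to replicate 1 for each of the 90 genes against spliced length in nt (log axis), by group, with a dotted line at 800 nt. Points of SE 6 h lie mostly above 0 (79 of 90), most of all at short lengths.

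Complex IV holds pairs of isoforms made for different tissues, and in every mouse the ubiquitous form supplied nearly all tags. *Cox4i1* was at 950 to 1319 CPM and *Cox4i2*, the lung and hypoxia isoform, at 0.32 to 1.05 CPM, or 0.0337 to 0.104% of the pair. *Cox6a2* made up 0.34 to 0.739% of the *Cox6a1* and *Cox6a2* tags. The testis isoform *Cox6b2* made up 0.308 to 1.2% of those of *Cox6b1* and *Cox6b2*. *Cox7a1* made up 0.55 to 1.45% of the *Cox7a2* and *Cox7a1* tags, with 1.36 and 1.45% at SE 2 days against 0.603 and 0.774% before SE. *Ndufa4l2* was at most 0.227% of the tags of *Ndufa4* and itself. *Cox7a2l*, which joins complexes III and IV into supercomplexes, had 80.9 to 127 CPM. The 3 genes for the proton-carrying subunit c of complex V, which encode the same mature protein, were used together. *Atp5g3* supplied 48.9 to 61.1% of their tags, *Atp5g1* 26.1 to 35.4% and *Atp5g2* 9.36 to 19.4%, with no group set apart from the rest. *Uqcr10* and *Uqcr11*, small subunits of complex III, had 267 to 717 and 253 to 822 CPM.

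*Cox8b*, the heart and skeletal muscle isoform of subunit 8, varied more than any other member. It had 1.9 and 7.1 CPM before SE, 1.12 and 22.1 CPM at SE 6 h, 5.52 and 1.04 CPM at SE + LEV 6 h, 0.59 and 0.33 CPM at SE 2 days, and 11.1 and 0.7 CPM at SE + LEV 2 days. In every group but SE 2 days, the mouse with more *Cox8b* was the one rich in choroid plexus markers. Those markers summed to 1696, 3985, 858 and 1499 CPM in the 4 libraries named above, and *Cox8b* had 5.52 to 22.1 CPM in these and 0.33 to 1.9 CPM in the other 6. Of the 4 markers 3 were listed, and *Ttr* ran from 4.33 to 3936 CPM, *Kl* from 3.66 to 23.6 CPM and *Clic6* from 0.07 to 25.6 CPM. Without these 4 libraries, which leaves 1 mouse in each group but SE 2 days, the *Cox8b* estimate moved from -2.8 to -1.88 at SE 2 days against pre-SE, from -3.25 to -1.16 at SE 2 days against SE 6 h and from 2.46 to 0.55 for LEV at 2 days. Since the libraries left out are those with the most *Cox8b*, these estimates had to shrink. The part of choroid plexus tissue in them was not tested. Its ubiquitous partner *Cox8a* had 1541 to 2693 CPM in the 10 mice.

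**Figure D5:**
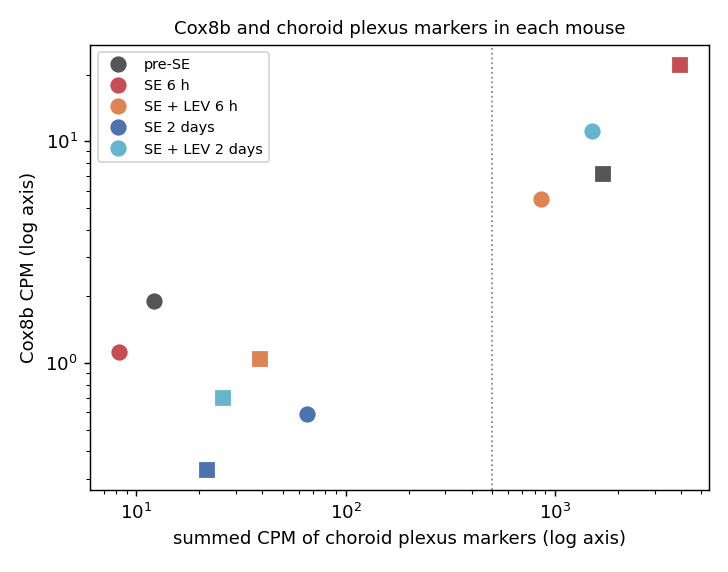
*Cox8b* CPM against the summed CPM of choroid plexus markers in each mouse (both log axes; circle, replicate 1; square, replicate 2; colour, group; dotted line at 500 CPM). The 4 libraries above 500 CPM hold the 4 highest *Cox8b* values, 5.52 to 22.1 CPM.

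Cell type markers moved over the same groups. Neuron markers summed to 10223 and 9146 CPM before SE, 8704 and 5868 CPM at SE 6 h and 6212 and 5057 CPM at SE 2 days, microglia markers to 163 and 155, 100 and 88.1, and 348 and 343 CPM, and astrocyte markers to 2437 and 2297, 2142 and 2594, and 3512 and 4936 CPM. The sums hide members that went apart. At SE 2 days against pre-SE *Gfap* (logFC = 3.6) and *Aqp4* (1.57) were the 2 of 6 astrocyte markers called, both higher by limma, and *Slc1a2* (-0.93), *Slc1a3* (-0.73) and *Gja1* (-0.98) lay below pre-SE without overlap and were not called. At SE 6 h against pre-SE, limma called the microglia marker *Cd68* higher (1.58) and *P2ry12* (-2.51) and *Tmem119* (-2.5) lower. Oligodendrocyte markers summed to 4967 and 5400, 3407 and 6473, and 1777 and 2725 CPM. In the SE + LEV mice, neuron markers summed to 9344 and 6575 CPM at 6 h and 5683 and 5569 CPM at 2 days. In the same order, microglia markers summed to 130 and 104, and 421 and 373 CPM. Astrocyte markers summed to 2632 and 2002, and 4411 and 4014 CPM, and oligodendrocyte markers to 5549 and 4200, and 3273 and 4596 CPM. The part of these cell types in the levels of the respiratory chain genes was not tested. The neuron marker sum was lower in each SE 2 days mouse than in either pre-SE mouse. Of the 8 neuron markers, 3 lay below pre-SE without overlap and 0 were called by limma. The summed level of the 90 genes at SE 2 days lay between those of the pre-SE mice. A link between these sums was not tested.

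Other genes of mitochondrial function were followed as lists. Of 11 genes for cytochrome c and the carriers that feed the chain, 0 were called in any comparison, as were 0 of the 23 tested assembly factors outside the symbol rule (of 29 on the list) and 0 of 12 genes of import and the outer membrane. Of 16 genes of the tricarboxylic acid cycle, 1 was called. *Mdh2*, mitochondrial malate dehydrogenase, rose from 175 and 173 CPM at SE 6 h to 368 and 314 CPM at SE 2 days (logFC = 0.96, SE 0.22, limma adjusted p = 0.038), a call kept in 8 of 20 alternatives (adjusted p 0.018 to 0.2). Among those that lost it were rescaling by median of ratios (limma adjusted p = 0.068), edgeR (adjusted p = 0.084), and leaving out any 1 library other than a SE + LEV 2 days mouse. Of 15 tested genes of mitochondrial biogenesis and genome upkeep (of 16 listed), 1 was called. *Ppargc1a*, a coactivator known for driving the transcription of respiratory genes, fell from 21.6 and 20.8 CPM at SE 6 h to 4.41 and 5.54 CPM at SE 2 days (logFC = -2.08, SE 0.4, limma adjusted p = 0.019), with 9.55 and 7.83 CPM before SE and 13.2 and 5.6 CPM at SE + LEV 6 h. This call was kept in 15 of 20 alternatives, and was lost when either SE 6 h or either SE 2 days mouse was left out (limma adjusted p 0.081 to 0.13). Without the 4 libraries rich in choroid plexus markers, where limma called 0 of all genes, the estimates were 0.95 for *Mdh2* and -2.11 for *Ppargc1a*. In SE 2 days against SE 6 h the medians of the lists were 0.14 for cytochrome c and carriers, 0.24 for assembly factors, 0.2 for the tricarboxylic acid cycle, -0.03 for biogenesis and 0.18 for import, beside 0.25 for the respiratory chain genes and 0.09 for all genes.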

How the data were processed

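Hippocampal RNA of 10 mice (2 in each of 5 groups) had been sequenced by CAGE. Per the labels and the study's methods, the authors aligned tags to mm9 with BWA 0.7.17 and HISAT2 2.0.5, used bedtools 2.12.0 and edgeR 3.22.5, called tag clusters with RECLU, and deposited CPM per gene and mouse. The step from clusters to gene sums is not given in the sources used here. The number of columns of sample values left unused was 0. The deposited CPM values were whole multiples of 1 tag within rounding in 100% of values, so tag numbers and library totals (10540698 to 51710968) were recovered.

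The 15851 of 15900 genes that reached 0.1 CPM in 2 or more libraries were tested on log2(CPM + 0.1) with limma 3.58.1 in R 4.3.3, with 5 group means, a mean-variance trend, all 10 libraries and two-sided tests. Benjamini-Hochberg adjustment ran over all genes tested, and a gene was called at an adjusted p of at most 0.05. LogFC is on that scale, which understates changes of low genes. Intervals are 95%. Alternatives were pseudocounts of 0.01 and 1, no filter, a filter at 1 CPM, median-of-ratios rescaling, a replicate block, the compared groups alone, each library left out, and edgeR 4.0.16 and DESeq2 1.42.0 on recovered tags. The code was tested on simulated data.

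The members and lists were chosen with earlier results of these data known. Named were every called member, in each comparison up to 5 members a direction with the largest logFC among those reaching 1 CPM whose groups did not overlap, the highest and lowest member of each complex, and isoform families. *Ndufb4* in single mice, *Ndufa1* and the neighbours of *Atp5o* were chosen after their values were seen, as was the limit of 500 CPM. Figures were drawn with matplotlib 3.10.9 in Python 3.11.15.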

Additional observations from a re-analysis of the deposited data

Results flagged for a closer look

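The effect of SE differed between 2 days and 6 h for 2 of the 90 members, by limma's test of the difference itself. That test is SE 2 days against SE 6 h, because both effects share the pre-SE mice. It called 3.14% of all genes higher, so a count of 2 does not set the members apart from other genes. The difference was 1.06 for *Atp5o* (limma adjusted p = 0.037) and 0.94 for *Ndufaf3* (limma adjusted p = 0.038), with both SE 2 days mice above both SE 6 h mice for each gene. Over 20 alternatives the call held in 9 for *Atp5o* (adjusted p 0.013 to 0.21) and in 7 for *Ndufaf3* (0.017 to 0.19). With 2 mice a group, no sample could be tested for standing apart from its group.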

How the results depend on the processing

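No called result changed direction in any alternative run. The 1 member called lower at SE 6 h against pre-SE became 0 with a pseudocount of 0.01 or 1, with median-of-ratios rescaling, with the replicate block, with the compared groups alone, in edgeR's quasi-likelihood test and without the 4 libraries rich in choroid plexus markers, and was 0 to 0 over the 10 fits that each left out 1 library. The 2 members called higher at SE 2 days against SE 6 h became 0 with median-of-ratios rescaling, with the replicate block, with the compared groups alone, in edgeR's quasi-likelihood test and without those 4 libraries, and were 0 to 3 over the fits that left out 1 library. Leaving out SE 2 days replicate 1 moved the *Ndufb4* logFC at SE 2 days against pre-SE to -1.9, in a fit that leaves only the low mouse of that group. Without the 4 libraries, an alternative chosen after seeing the data that leaves 1 residual degree of freedom and in which limma called 0 of all genes at SE 6 h against pre-SE and at SE 2 days against SE 6 h, the members' median logFC was 0.57 for SE + LEV 6 h against SE 6 h and 0.27 against pre-SE. The mice left were SE + LEV 6 h replicate 2, SE 6 h replicate 1 and pre-SE replicate 1, with member sums of 36381, 25141 and 29853 CPM. The first is the higher mouse of its group and the others are the lower ones of theirs, which by itself raises both medians. The part of choroid plexus tissue in these medians was not tested.

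The replicate numbers mark different animals. Over all genes tested, same-numbered mice deviated together with correlations of -0.44 to 0.34, so the numbers were not taken as pairs. These correlations were not computed for the members alone. Replicate 2 was the higher mouse in 76 of 90 members at pre-SE, 79 at SE 6 h and 67 at SE + LEV 6 h. It was so in 34 at SE 2 days and 52 at SE + LEV 2 days. With the replicate block the limma adjusted p was 0.062 for *Ndufaf3* at 6 h, and 0.051 for *Ndufaf3* and 0.051 for *Atp5o* at SE 2 days against SE 6 h. Of all genes, limma called 437 higher and 32 lower at SE 6 h against pre-SE, and 498 higher and 176 lower at SE 2 days against SE 6 h. In either direction edgeR called 517 and 476 in these comparisons and DESeq2 1107 and 1293. With 2 mice a group the median 95% interval of a member's logFC was 1.46 wide. Members at about 1 CPM rested on few tags, such as 9 to 49 for *Cox4i2* and 8 to 85 for *Ndufa4l2*.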
